A study of Mus musculus with 4 samples.

Results

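The 8 genes described here belong to the insulin-like growth factor (IGF) system of mouse aortic endothelial cells (EC). They are the binding proteins Igfbp3, Igfbp4, Igfbp5, Igfbp6 and Igfbp7, the receptors Igf1r and Insr, and the ligand Igf2. The genes were picked by name, with measured levels of these same cells already known, out of 16225 nuclear genes with at least 1 UMI in a kept cell. A UMI is a molecular identifier that marks 1 captured transcript. A well was kept as a cell when it held at least 1000 UMIs outside spike-in and mitochondrial rows and at most 25% mitochondrial UMIs. That left 441 cells from 1536 wells. The gene list of the plate held all 8 symbols for 1 mouse only, and 7, 7 and 6 of them for the other mice.

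Single cells were profiled by SORT-seq, a plate method that tags the 3′ end of transcripts, from whole aortas whose adventitia had been pulled off with forceps. Live cells positive for CD31 and negative for CD45 were sorted, 1 plate of 384 wells per mouse. Epas1 EC-KO mice carried Epas1fl/fl with 1 Cdh5Cre allele, a tamoxifen-inducible Cre driven by the endothelial Cdh5 promoter, and EC-WT mice carried Epas1fl/fl without Cre. All mice were C57BL/6 animals and all were given tamoxifen, 2 mg on each of 5 days starting at an age of 6 weeks, with aortas taken 2 weeks after that. Each group held 2 mice. The question was what the loss of Epas1, which encodes a hypoxia-inducible transcription factor, does in arterial EC.

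The EC-KO mice gave 157 and 98 kept cells and the EC-WT mice 114 and 72, with 1088901, 851118, 648977 and 566088 nuclear UMIs. Median depth per cell was 5796, 7419, 3779 and 5752.5 UMIs. Pecam1, which encodes CD31, had a UMI in 432 of 441 cells. UMIs of 8 immune markers numbered between 1 and 5 per mouse. Levels are given as CPM, the UMIs of a gene per 1000000 nuclear UMIs summed over the kept cells of a mouse. The list of 11 smooth muscle markers, all of them detected in every mouse, totalled 4811 and 6692 CPM in the EC-KO mice against 998 and 1298 in the EC-WT mice. Epas1 itself stood at 2930 and 3148 CPM in EC-KO mice and 3324 and 2351 in EC-WT mice (log2 fold change 0.13 ± 0.22 SE, edgeR adjusted p = 0.951). Tags from the 3′ end need not fall in the deleted part of the gene, so this level checks neither label. The number of kept cells was also higher in the mice labelled EC-KO (255 against 186), which is the reverse of the order of cell numbers in the methods of the study. The study reports loss of Epas1 in EC-KO mice from quantitative PCR of endothelial RNA and from en face staining. Whether labels were exchanged was not tested, and an exchange would turn every direction between genotypes. The genotypes are given throughout as labelled.

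Insulin-like growth factors are secreted peptides that signal through the tyrosine kinase receptor IGF1R and, more weakly, through the insulin receptor INSR. Binding proteins hold them in the circulation and in the pericellular matrix, and proteases release them again. EC carry receptors for both IGF and insulin, and IGFBP7 differs from the other binding proteins in its low affinity for IGF and in its deposition in the vascular basement membrane. Igf2 is an imprinted gene with strong fetal expression.

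Because hypoxia-inducible factors bind DNA at a short core, the 250 bases before the RefSeq start sites were searched for ACGTG and GCGTG on both strands. The promoters of the 3 binding proteins on which the comparison of genotypes turned are printed below, from the GRCm38.p6 build and in the direction of the gene, with matches in capitals. Igfbp7 lies at chr5:77408046-77408295 on the minus strand, Igfbp4 at chr11:99040994-99041243 on the plus strand, and Igfbp5 at chr1:72874866-72875115 on the minus strand.
Igfbp7: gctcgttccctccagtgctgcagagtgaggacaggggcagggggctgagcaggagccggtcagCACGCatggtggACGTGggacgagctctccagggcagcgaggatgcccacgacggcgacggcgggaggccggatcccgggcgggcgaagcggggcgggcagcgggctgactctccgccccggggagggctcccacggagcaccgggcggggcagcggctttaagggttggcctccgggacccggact
Igfbp4: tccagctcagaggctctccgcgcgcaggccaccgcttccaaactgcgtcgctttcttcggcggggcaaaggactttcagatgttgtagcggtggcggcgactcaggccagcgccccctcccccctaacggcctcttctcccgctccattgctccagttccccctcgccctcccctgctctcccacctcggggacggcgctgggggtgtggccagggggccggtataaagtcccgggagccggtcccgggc
Igfbp5: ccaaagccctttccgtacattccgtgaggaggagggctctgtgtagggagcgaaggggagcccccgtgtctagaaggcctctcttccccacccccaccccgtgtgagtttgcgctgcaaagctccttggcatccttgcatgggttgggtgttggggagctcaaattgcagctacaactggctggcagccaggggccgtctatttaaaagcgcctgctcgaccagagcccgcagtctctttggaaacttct
The Igfbp7 window held 2 matches, CACGC at 187 bases and ACGTG at 175 bases before the start site, the former being GCGTG read on the other strand. Neither the Igfbp4 nor the Igfbp5 window held a match. Of the other members with an entry, Igf1r had 3 matches, Igfbp3 had 2, Igfbp6 had 0, and 1 of the 4 Igf2 promoters had 1. Together 4 of 10 member windows held a match, beside 38.6% of all 32851 promoter windows of this length. A match describes these letters only. In the GENCODE annotation of GRCm38 the 8 genes are protein coding and lie on chromosomes 1, 5, 7, 8, 11 and 15, with Igfbp3 and Igfbp4 on chromosome 11 and Igf1r and Igf2 on chromosome 7. The gene bodies span chr5:77349240-77408041 for Igfbp7, chr11:99041244-99054392 for Igfbp4, chr1:72857932-72874884 for Igfbp5, chr7:67952827-68233668 for Igf1r, chr8:3122061-3279617 for Insr and chr7:142650766-142666816 for Igf2.

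The share of cells that carried a given gene was small for several members. Of 441 cells, Igfbp4 had a UMI in 245 (55.6%, 95% exact binomial interval 50.8 to 60.3%), Igfbp7 in 234 (53.1%, 48.3 to 57.8%), Igf1r in 177 (40.1%, 35.5 to 44.9%) and Igf2 in 162 (36.7%, 32.2 to 41.4%). Insr was found in 101 cells (22.9%, 19.1 to 27.1%) and Igfbp5 in 42 (9.52%, 6.95 to 12.7%). Igfbp3 was found in 5 cells (1.13%, 0.369 to 2.63%) and Igfbp6 in 1 cell (0.227%, 0.00574 to 1.26%). Only Igfbp4 and Igfbp7 were therefore seen in most of the 441 cells, and Igfbp3 and Igfbp6 rested on 10 and 3 UMIs in all. A majority was not reached in every mouse. Igfbp4 was in 48.4% of the cells of EC-KO mouse 1 and Igfbp7 in 40.4% of those of EC-WT mouse 1. No member was seen in 43 cells, 1 member in 98, 2 in 128, 3 in 99, 4 in 50, 5 in 22 and 6 in 1.

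The shares of Igfbp4, Igfbp7, Igf1r, Insr and Igf2 were lower in shallow cells than in the deepest. In cells with 1000 to 2000 UMIs Igfbp4 was seen in 23.5% of 68 cells, and in cells with at least 8000 UMIs in 75.2% of 145, although its level was 286 and 414 CPM in those bins. Between the same bins the share for Igf1r went from 13.2% to 63.4% of cells, and that for Insr from 2.94% to 35.2%. For Igfbp7 it went from 32.4% to 69.7% and for Igf2 from 17.6% to 42.1%. Igfbp5 did not follow depth in this way, with 5.88%, 6.25%, 14.4% and 8.97% of cells in the 4 bins from shallow to deep. Cells without any member had a median of 2066 UMIs. A cell with no UMI of a receptor therefore need not lack it, and the level in CPM is given beside the share of cells. With every cell thinned to 1000 UMIs, Igfbp7 was left in 31.2% and 25.5% of EC-KO cells and in 16.7% and 18.1% of EC-WT cells. For Igfbp4 the thinned shares were 19.7% and 21.4% against 26.3% and 34.7%, and for Igf1r 12.1% and 13.3% against 6.14% and 8.33%. For Igfbp5 they were 1.91% and 2.04% against 4.39% and 6.94%. The thinned shares of the groups did not overlap for these 4 of 8 members, beside 28.4% of the 12881 genes with a UMI left after thinning, and the exact permutation p of 0.33 for each is the smallest that 2 mice against 2 can give. Before thinning the shares overlapped for Igfbp7 (53.5% and 63.3% against 40.4% and 58.3%) and Igfbp4 (48.4% and 60.2% against 50.0% and 73.6%), and in cells with at least 2000 UMIs only Igfbp5 of these 4 did not overlap.

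Wells of plate rows L to P, of which 0 of 480 were kept, give the share of wells with a UMI where no cell was counted, at a median of 21 to 63 UMIs per well. Igfbp7 was found in 33 of them (6.88%), Igfbp4 in 11 (2.29%), Igf1r and Igf2 in 6 each (1.25%) and Igfbp5 in 2 (0.417%). The Igfbp7 UMIs numbered 11 and 21 in the EC-KO plates and 0 and 8 in the EC-WT plates, in 11, 16, 0 and 6 of 120 wells each. These wells thus also held more Igfbp7 on the EC-KO plates, and the part of such UMIs in the values of kept cells was not tested.

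**Figure D1:**
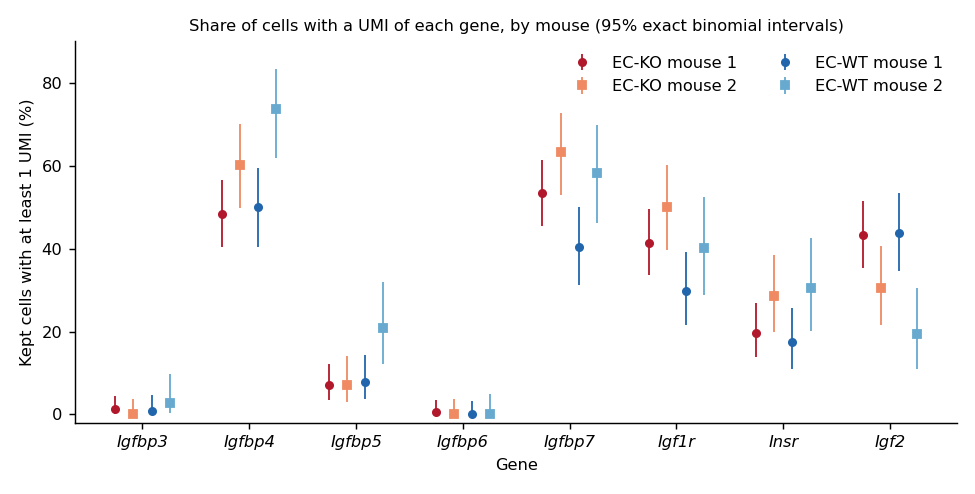
Share of kept cells (%) with at least 1 UMI of each gene, by mouse (157, 98, 114 and 72 cells), with 95% exact binomial intervals that cover counting error only. Igfbp4 and Igfbp7 were found in 40.4 to 73.6% of the cells of each mouse and Igfbp3 and Igfbp6 in at most 2.78%.

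Averaged over the 4 mice with all kept cells, Igfbp7 was the most abundant member at 863 ± 569 CPM (SD, n = 4), rank 130 among 16225 genes. Igfbp4 followed at 424 ± 136, Igf2 at 294 ± 136 and Igf1r at 154 ± 30.2. Lower still were Igfbp5 at 79.3 ± 48.6, Insr at 52.2 ± 16.7, Igfbp3 at 3.88 ± 4.66 and Igfbp6 at 0.689 ± 1.38 CPM. A transcript gives 1 tag at its 3′ end whatever its length, so these levels were not divided by length. Each neighbouring pair in this order overlapped in its range over mice, except Insr (37.7 to 76.0) and Igfbp3 (0 to 10.6). Within mice the upper gene of a pair was higher in 4 of 4 mice for Igf1r over Igfbp5 and for Insr over Igfbp3, in 2 for Igfbp3 over Igfbp6, and in 3 for each other pair.

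Igfbp7 stood at 1009 and 1598 CPM in the EC-KO mice and at 322 and 521 in the EC-WT mice. The groups did not overlap, and the EC-KO level was 3.17-fold higher in the fit (log2 fold change 1.66 ± 0.26 SE, edgeR quasi-likelihood test, adjusted p = 0.038). Igfbp7 was the only member called among 10 genes of 8385 tested (0.119%), all 10 of them higher in EC-KO mice. Of the other 9 called genes 6 are on the smooth muscle list: Tagln, Myh11, Myl9, Acta2, Mylk and Cnn1. The rest were Aoc3, Itga8 and Ogn. Beside the smooth muscle list, the fibroblast list was also higher in both EC-KO mice (3142 and 1580 CPM against 753 and 1297 in EC-WT mice). So was the pericyte list (129 and 256 against 46.2 and 58.3), although its genes Rgs5 and Kcnj8 had at most 1 UMI in any mouse. With 1 mouse left out, 4 to 129 genes were called, the fewest without EC-KO mouse 2 and the most without EC-WT mouse 1. In such a fit 1 genotype has a single mouse, which is assumed to vary like the 2 mice of the other. The genotypes are compared over 2 mice each, and fewer cells of a type cannot be told apart from less RNA per cell in these sums.

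Igfbp4 went the other way, with 329 and 308 CPM in EC-KO mice against 601 and 459 in EC-WT mice. This difference did not pass the test (log2 fold change -0.70 ± 0.20 SE, unadjusted p = 0.00407, edgeR adjusted p = 0.418). Igfbp5 measured 24.8 and 64.6 in EC-KO mice and 86.3 and 141 in EC-WT mice (log2 fold change -1.34 ± 0.39 SE, edgeR adjusted p = 0.428). With 1 mouse left out the log2 fold change ran from -0.90 to -0.47 for Igfbp4 and from -2.11 to -0.79 for Igfbp5. In each of these fits 1 group was a single mouse and the spread came from the 2 mice of the other group alone. The EC-KO values of both genes lay below both EC-WT values. With Igfbp7, and with Igfbp3, where EC-KO mouse 1 and EC-WT mouse 1 had 2 UMIs each and only their totals set them apart, 4 of 8 members had CPM that did not overlap between the groups, beside 30.1% of all genes with a UMI. Among the 8385 genes tested the share was 36.4%, with EC-KO higher in 15.7% and lower in 20.7%. An unadjusted edgeR p under 0.05 was reached by Igfbp7, Igfbp4 and Igfbp5 of the 6 members tested, and by 6.6% of all genes tested.

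The scarce binding proteins gave no comparison. Igfbp3 had 2 and 0 UMIs in the EC-KO mice and 2 and 6 in the EC-WT mice, and 1 cell of EC-WT mouse 2 held 4 of them. Igfbp6 had 3 UMIs, all in 1 cell of EC-KO mouse 1 that also carried 78 UMIs of Fabp4 and 17 of Pecam1. The other mice had 0 of 98, 0 of 114 and 0 of 72 cells with Igfbp6, which allows shares of up to 3.06%, 2.63% and 4.17% of cells with a UMI at this depth and does not limit the share of cells that express it. Neither gene passed the filter on low counts.

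Levels of the receptors overlapped between genotypes. Igf1r stood at 122 and 192 CPM in EC-KO mice and 139 and 163 in EC-WT mice (log2 fold change 0.09 ± 0.24 SE, edgeR adjusted p = 0.979). It was seen in 41.4% and 50.0% of EC-KO cells and in 29.8% and 40.3% of EC-WT cells, and these shares did not overlap before or after thinning to 1000 UMIs. In cells with at least 2000 UMIs they did overlap, at 43.3% and 51.7% against 39.3% and 47.5%, and the difference went from 10.6 to 4.10 percentage points. Insr measured 37.7 and 50.5 in EC-KO mice against 44.7 and 76.0 in EC-WT mice (log2 fold change -0.41 ± 0.33 SE, edgeR adjusted p = 0.874). With 1 mouse left out its log2 fold change ran from -0.74 to -0.021. Insr was seldom present at more than 1 UMI: 69 of its 101 cells had 1.

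The ligand Igf2 varied as much within a genotype as between them. Its level was 421 and 228 CPM in EC-KO mice and 393 and 134 in EC-WT mice (log2 fold change 0.33 ± 0.41 SE, edgeR adjusted p = 0.92). The sign turned with the mice used: the log2 fold change was -0.21 without EC-KO mouse 1, -0.25 without EC-WT mouse 2 and 1.34 without EC-WT mouse 1 (edgeR adjusted p = 0.000209 in the last, where EC-WT was 1 mouse and the spread came from the EC-KO mice alone). In the annotation Igf2 shares its strand with the overlapping Gm49394 and lies opposite Igf2os, and the counting of strands is not given in the sources used here, so its UMIs may include those of its neighbours. The antisense transcript, under its other name Igf2as, had 1 UMI in kept cells, as listed by the authors.

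**Figure D2:**
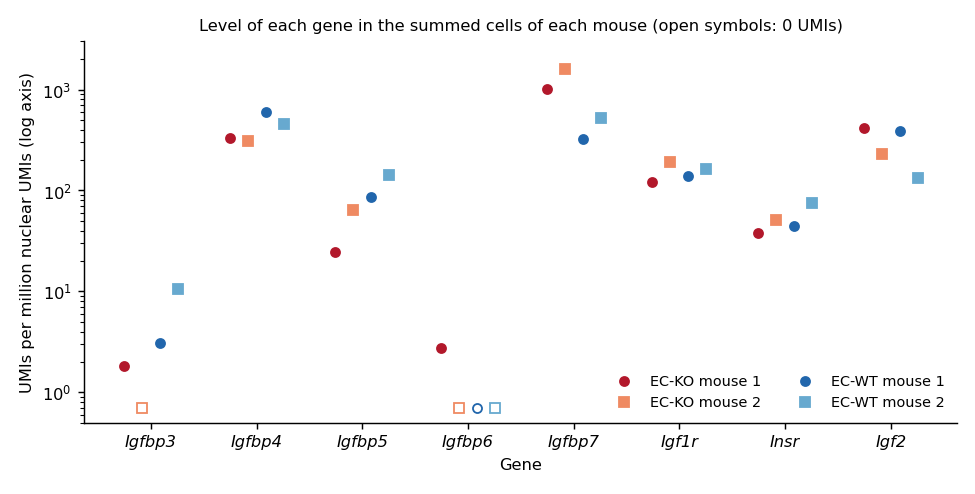
CPM of each gene on a log axis, 1 point per mouse, with open symbols at the lower edge for 0 UMIs. Both EC-KO mice (1009 and 1598) lie above both EC-WT mice (322 and 521) for Igfbp7, whereas the mice of the 2 genotypes interleave for Igf1r, Insr and Igf2.

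The cells were then separated by marker lists that hold none of the 8 genes. The smooth muscle gate took cells with at least 1% of UMIs on 11 genes such as Acta2 and Myh11, and the fibroblast gate took further cells with at least 0.5% on 8 genes such as Dcn and Col1a1. The capillary lipid handling gate took further cells with at least 0.3% on 9 genes such as Cd36 and Fabp4. Each gate also asked for at least 3 UMIs of its list. The gates held 21, 15 and 23 cells, and 382 cells fell in none. Smooth muscle gate cells had 53428 CPM on their own list and 2896 on the endothelial list, against 13308 on the endothelial list in cells of no gate. The pericyte list stood at 1430 CPM in the smooth muscle gate cells and at 44.0 in cells of no gate. The fibroblast gate is named for its list only. Its 15 cells all carried Pecam1 and 38 further cells lay within a factor of 2 below the threshold. In EC-KO mouse 1 the 9 gate cells had 18426 CPM on the fibroblast list and 7016 on the endothelial list. In the other mice, with 2 cells each, the endothelial list was the higher: 10431 against 8176 in EC-KO mouse 2, 13353 against 5638 in EC-WT mouse 1 and 9723 against 8282 in EC-WT mouse 2.

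Igfbp7 was concentrated in few cells. The 21 smooth muscle gate cells, 4.76% of all, all carried it and held 1764 of its 2963 UMIs (59.5%). By mouse its level in these cells was 7425, 10622, 8012 and 5509 CPM in the EC-KO mice 1 and 2 and the EC-WT mice 1 and 2, and in cells of no gate it was 263, 355, 202 and 288. All 4 mice thus showed the same order, with a log2 fold change of 4.44 ± 0.54 SE within mice (edgeR adjusted p = 2.45e-14). Of 6438 genes 10.9% were called in this comparison, 5.03% higher and 5.9% lower in the gate. It includes mice with 2 to 11 gate cells. It was chosen after the data were seen, because only 2 mice reached the 5 gate cells set for a test. Pooled over cells of no gate, Igfbp7 stood at 278 CPM, below Igfbp4 at 381 and Igf2 at 353. In EC-KO mouse 2 it was above both there (355 against 293 and 274). In EC-WT mouse 2 it was above Igf2 (288 against 136) and below Igfbp4 (436).

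The smooth muscle gate made up 7.01% and 5.10% of the EC-KO cells but 2.63% and 2.78% of the EC-WT cells. When the smooth muscle and fibroblast gate cells were left out, Igfbp7 stood at 322 and 416 CPM in EC-KO mice and 230 and 364 in EC-WT mice. The groups then overlapped, and the log2 fold change was 0.35 ± 0.22 SE (edgeR adjusted p = 0.89). In that comparison 0 of 8091 genes were called by edgeR and 0 by DESeq2, while 248 higher and 224 lower genes had an unadjusted edgeR p under 0.05. In cells of no gate alone the log2 fold change was 0.36 (edgeR adjusted p = 0.897). In those cells the smooth muscle list summed to 594 and 868 CPM in EC-KO mice against 225 and 319 in EC-WT mice, and of its 6 genes tested 1 was called, Acta2 (2.01 ± 0.33 SE, edgeR adjusted p = 0.0418). Single cells weighed on the sums as well: 1 smooth muscle gate cell of EC-KO mouse 2 held 569 of the 1360 Igfbp7 UMIs of that mouse, together with 461 UMIs of Acta2 and 60 of Pecam1. At 47621 UMIs it was also among the deepest wells, and whether it held a single cell was not tested. With the highest cell of each mouse left out Igfbp7 was still called (log2 fold change 1.46, edgeR adjusted p = 0.0167), and without EC-KO mouse 2 it was not (1.34, edgeR adjusted p = 0.394).

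**Figure D3:**
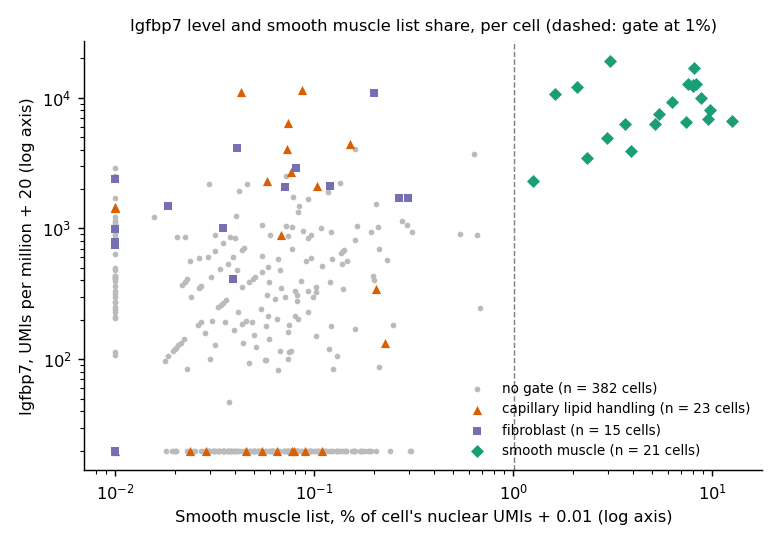
Igfbp7 level of each of the 441 cells (CPM + 20, log axis) against the share of its UMIs on the smooth muscle list (% + 0.01, log axis), with a dashed line at the gate of 1%. All 21 cells to the right of the line carry Igfbp7, while the 382 cells of no gate spread from 0 upwards.

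Capillary lipid handling gate cells carried more Igfbp7 too. Their level was 2566 CPM in EC-KO mouse 1, 2031 in EC-KO mouse 2, 757 in EC-WT mouse 1 and 1344 in EC-WT mouse 2, each above the no gate cells of the same mouse. Over the 3 mice with at least 5 such cells (5, 8 and 7) the log2 fold change was 2.23 ± 0.30 SE (edgeR adjusted p = 3.3e-11), in a comparison in which 6.13% of 5888 genes were called, 2.34% higher and 3.79% lower. Even so only 13 of the 23 gate cells had an Igfbp7 UMI, and 1 cell held 53 of the 54 UMIs in the gate of EC-KO mouse 2 and another 33 of the 62 in that of EC-KO mouse 1. The fibroblast gate cells reached 2409 CPM in all, with 14 of 15 cells positive, and this difference from cells of no gate did not pass the test (log2 fold change 1.72 ± 0.67 SE, edgeR adjusted p = 0.305), although DESeq2 called it (2.19, adjusted p = 0.0265) and so did edgeR with the gate thresholds halved (1.94, adjusted p = 2.11e-18). Over the 4 mice 24 of 5980 genes were called for that gate (0.401%), 0.251% higher and 0.151% lower. This comparison, too, was chosen after the data were seen and took mice with 2 to 9 gate cells. EC-KO mouse 1 held 205 of the 247 Igfbp7 UMIs of the gate, and the other mice held 36, 1 and 5.

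Igf2 had the opposite distribution. Of its 983 UMIs 963 were in cells of no gate, of which 154 of 382 were positive. Median depth was 5263 UMIs in smooth muscle gate cells and 5628.5 in no gate cells. Among smooth muscle gate cells 1 of 21 carried Igf2, with 3 UMIs in EC-KO mouse 1, a level 0.0764 times that of the no gate cells of that mouse (95% exact interval 0.0157 to 0.225). EC-KO mouse 2 had 0 UMIs in its 5 gate cells. With 3 UMIs as the limit for a count of 0, that is at least 8.77-fold below its no gate cells. The interval and this limit treat UMIs as independent draws, yet 1 no gate cell of EC-KO mouse 2 held 58 of 194 UMIs. Counted over cells, 0 of 5 allows a share of up to 52.2% (95% exact binomial interval), above the 34.1% of its no gate cells. No minimum difference over cells is therefore read for that mouse. In EC-KO mouse 1 the gate share was 9.09% (0.230 to 41.3%) against 47.7%. The 2 EC-WT mice had too few UMIs in the gate to show a difference. In capillary lipid handling gate cells the Igf2 level was 248, 0, 30.3 and 178 CPM against 491, 274, 418 and 136 in no gate cells. EC-WT mouse 2 was the exception, with the higher value in the gate. The fibroblast gate cells had 3 Igf2 UMIs in 15 cells. With 3, 14 and 3 UMIs in the smooth muscle, capillary lipid handling and fibroblast gates, Igf2 reached a test of each gate only through the no gate cells, so no call is given for it.

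Igfbp4 was spread more evenly. Cells of no gate held 1041 of its 1270 UMIs (82.0%), and 15 of 21 smooth muscle gate cells and 19 of 23 capillary lipid handling gate cells were positive. Its level in no gate cells was 293 and 293 CPM in EC-KO mice and 572 and 436 in EC-WT mice. The genotype difference was thus about as large without the gated cells as with them (log2 fold change -0.76 ± 0.20 SE), and still not called (edgeR adjusted p = 0.818). Between gate and no gate cells it differed by 0.10 ± 0.48 SE (log2) for smooth muscle (edgeR adjusted p = 0.95). For capillary lipid handling the difference was 0.49 ± 0.32 SE (edgeR adjusted p = 0.501). For the fibroblast gate it was -1.23, not called, and ran from -3.08 to -0.63 with 1 mouse left out.

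Igfbp5 rested on a handful of cells. The 10 richest cells held 80.3% of its 218 UMIs, led by 46 UMIs in 1 no gate cell of EC-WT mouse 1, 44 in 1 capillary lipid handling gate cell of EC-KO mouse 2 and 29 and 22 in 2 no gate cells of EC-WT mouse 2. The EC-KO cell also had 31 UMIs of Igfbp4, 15 of Lyve1, a hyaluronan receptor known from lymphatic endothelium, and 0 of the lymphatic marker Flt4. The EC-WT mouse 1 cell had 3 of Lyve1 and 0 of Flt4. Both EC-WT mouse 2 cells, with 29 and 22 Igfbp5 UMIs, had 0 of Lyve1 and 0 of Flt4. Over the kept cells of EC-KO mice 1 and 2 and EC-WT mice 1 and 2, Lyve1 was found in 13, 6, 7 and 6 cells. Flt4 was found in 22, 15, 15 and 16. Of the other lymphatic markers Reln had 1, 3, 1 and 0 UMIs and Mmrn1 1, 0, 0 and 0. Prox1, Pdpn and Ccl21a had 0 in every mouse. Whether these cells were lymphatic was not tested. In no gate cells Igfbp5 had 6 and 4 UMIs in EC-KO mice and 52 and 61 in EC-WT mice, found in 3, 4, 7 and 11 cells. The fitted log2 fold change was -3.98, in a comparison added after the data were seen in which 2 of 7925 genes were called (0.0252%, with 0.0126% higher and 0.0126% lower), Acta2 higher and Igfbp5 lower in EC-KO mice. Igfbp5 passed the filter on low counts there only through the EC-WT mice, and 46 of the 52 UMIs of EC-WT mouse 1 were in 1 cell, so the call supports nothing further. When the highest cell of each mouse was left out as well, 2, 3, 6 and 32 UMIs remained and Igfbp5 no longer passed the filter on low counts. Over all cells, with the highest cell of each mouse left out, its log2 fold change was -1.66 (edgeR adjusted p = 0.591). In the fibroblast gate Igfbp5 had 22 UMIs in 7 of 15 cells and was called higher than in no gate cells (log2 fold change 2.97 ± 0.67 SE, edgeR adjusted p = 0.00876). By mouse these were 10 and 4 UMIs in the EC-KO mice and 0 and 8 in the EC-WT mice, the 8 in 1 cell. The comparison took mice with 2 to 9 gate cells. It was chosen after the data were seen, because only EC-KO mouse 1 reached the 5 gate cells set for a test. The Igfbp5 call was lost when EC-KO mouse 1, EC-KO mouse 2 or EC-WT mouse 2 was left out (edgeR adjusted p = 0.568, 0.656 and 0.0641). With 1 mouse left out the log2 fold change lay between 2.54 and 3.69.

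The receptors were less marked. Over all mice Igf1r measured 265, 156, 89.3 and 146 CPM in the smooth muscle, fibroblast, capillary lipid handling and no gate cells. Insr measured 55.0, 9.75, 203 and 43.6 in the same order. Of the 25 Insr UMIs of the capillary lipid handling gate, 10 were in 1 cell of EC-WT mouse 2. The mice did not all follow these orders. In the smooth muscle gate Igf1r was 163, 375, 0 and 242 CPM in EC-KO mice 1 and 2 and EC-WT mice 1 and 2. Their no gate cells had 111, 178, 142 and 168. In the capillary lipid handling gate Igf1r was 207, 0, 90.9 and 76.1. Insr there was 166, 263, 30.3 and 330 CPM, against 37.4, 41.0, 46.3 and 55.2 in no gate cells. Igf1r was called in none of the gates. For Insr the log2 fold change of the capillary lipid handling gate was 1.52 ± 0.69 SE over 3 mice (edgeR adjusted p = 0.227). When EC-KO mouse 2 with its 3 gate cells was added, a choice made after the data were seen, Insr (1.71, edgeR adjusted p = 0.0453), Igfbp4 (0.86, edgeR adjusted p = 0.0224) and Igfbp5 (2.60, edgeR adjusted p = 5.72e-05) were called beside Igfbp7. In that comparison 7.46% of 6638 genes were called, 2.52% higher and 4.94% lower, and 44 of the 58 Igfbp5 UMIs and 31 of the 112 Igfbp4 UMIs of the gate came from 1 cell of the added mouse.

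**Figure D4:**
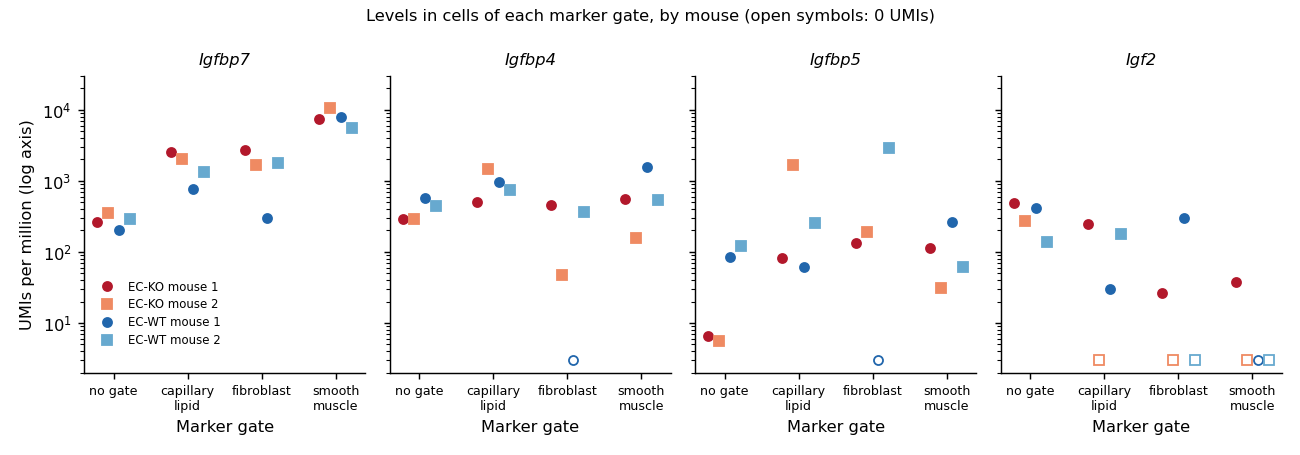
Level of Igfbp7, Igfbp4, Igfbp5 and Igf2 (CPM, log axis) in the cells of each marker gate, 1 point per mouse, open symbols for 0 UMIs. Igfbp7 lies between 202 and 355 in no gate cells and between 5509 and 10622 in smooth muscle gate cells, and Igf2 has 0 UMIs in the smooth muscle gate of 3 mice.

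**Figure D5:**
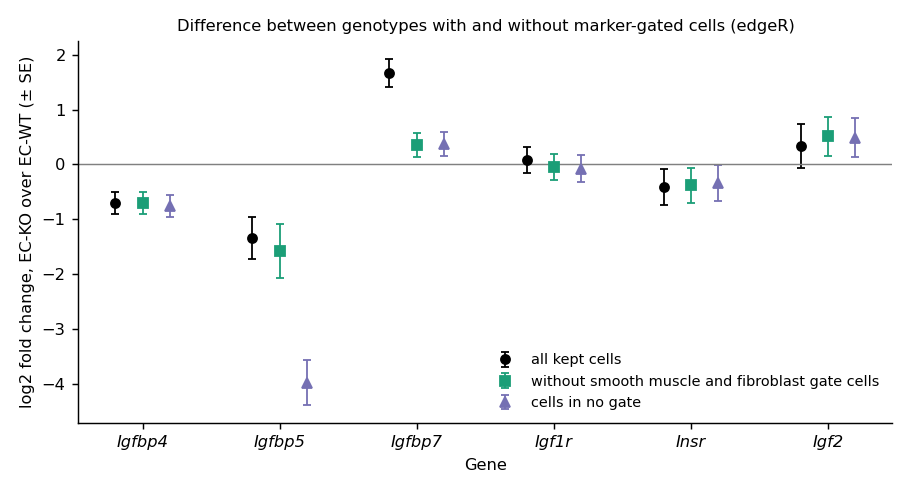
Log2 fold change of EC-KO over EC-WT mice (edgeR, bars ± SE, 2 mice per group) for the 6 members that passed the filter, over all kept cells, without the smooth muscle and fibroblast gate cells, and in cells of no gate. Igfbp7 moves from 1.66 to 0.35 and 0.36, and Igfbp4 stays between -0.70 and -0.76. The fitted values of Igfbp5 are -1.34, -1.57 and -3.98. In cells of no gate Igfbp5 passed the filter on low counts only through the EC-WT mice, so no shift is read from its -3.98.

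Genes whose pattern over cells was most like that of a member were sought among 6975 genes seen in at least 10% of cells, by Pearson correlation over 441 cells after removal of mouse means and depth. For Igfbp7 these were Tagln (r = 0.56), Sparcl1 (r = 0.51) and Myl9 (r = 0.50), and in the 382 no gate cells their r was 0.18, 0.030 and -0.013. Igf2 was most like Stmn2 (r = 0.31), Cldn5 (r = 0.27) and Klf4 (r = 0.25), the former a tubulin-binding protein, Cldn5 an endothelial tight junction protein and Klf4 a flow-responsive transcription factor. The r of Igf2 with Stmn2 was 0.30 in no gate cells. For the other members no r over the 441 cells exceeded 0.24. Igfbp4 was nearest to Tcf4, Spint2 and Ccdc3, Igf1r to Dmpk, Klk11 and Srsf10, and Insr to Tm6sf2, Senp2 and Slc17a5. The r of Insr with Tm6sf2 was 0.26 in no gate cells. That of Igfbp4 with Spint2 was 0.26 in cells with at least 2000 UMIs. Values this weak in sparse counts name no partner. Among the members themselves r ran from -0.19 for Igfbp7 with Igf2 to 0.15 for Igfbp4 with Igf1r. All these cells share plates and depth, so r is a description only.

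Of 45 other genes of the IGF and insulin pathway, 27 passed the filter and 0 were called between genotypes in either direction by edgeR, with 0 at an unadjusted p under 0.05. Over all genes tested these shares were 0.119% and 6.6%, so counts of 0 among 27 lie near the background. Their median log2 fold change was -0.045, beside -0.0053 over all 8385 genes. The ligand Igf1 had 20, 4, 2 and 3 UMIs in the 4 mice, 11 of the 20 of EC-KO mouse 1 in its fibroblast gate cells, and Ins1 and Ins2 had 0 UMIs in 441 cells. Among other binding proteins Igfbp2 had 40 UMIs, all of them in 4 smooth muscle gate cells, and 25 in the EC-KO mouse 2 cell that led Igfbp7. Igfbp1 had 0 UMIs, Igfbpl1 had 1 and Igfals, the acid-labile subunit that holds IGF complexes in serum, had 2. The scavenging receptor Igf2r was seen in 176 cells at 99.2, 106, 111 and 110 CPM (log2 fold change -0.07, edgeR adjusted p = 0.98). Insrr, the insulin receptor-related receptor, had 1 UMI.

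Htra1, a secreted serine protease that cleaves binding proteins, was the most abundant gene of the pathway list. It was seen in 367 cells, at 719 and 783 CPM in EC-KO mice and 678 and 579 in EC-WT mice (log2 fold change 0.29 ± 0.18 SE, edgeR adjusted p = 0.829). Capillary lipid handling gate cells had 0, 0, 121 and 152 CPM of Htra1 against 760, 881, 714 and 607 in no gate cells of the same mice, lower in each. With 10 UMIs in the gate, Htra1 also reached that test only through the no gate cells, and no call is given. Pappa2, a metalloprotease that cleaves Igfbp5 among others, had 135 UMIs, 119 of them in the cell with 569 Igfbp7 UMIs and 11 in 1 smooth muscle gate cell of EC-WT mouse 1. In cells of no gate Pappa2 had 4 UMIs and Igfbp2 had 0, so both genes reached a test of the smooth muscle gate only through the gate itself and no call is given for them. Pappa had 9 UMIs, and Stc1 and Stc2, stanniocalcins that inhibit these proteases, had 21 and 3.

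Downstream of the receptors, the adaptors with most UMIs were Grb10, Grb2 and Shc1, while Irs4 had 0 UMIs in every mouse. Grb10, an adaptor that restrains both receptors, stood at 109, 153, 112 and 102 CPM in the EC-KO and then the EC-WT mice. Grb2 stood at 104, 76.4, 119 and 84.8 and Shc1 at 65.2, 57.6, 84.7 and 88.3. The kinase Akt1 measured 196, 284, 333 and 210, and the mTOR activator Rheb 171, 186, 213 and 163. Foxo1, the transcription factor that insulin signalling keeps out of the nucleus, measured 219, 201, 233 and 207, Foxo4 measured 17.4, 24.7, 23.1 and 30.0, and Foxo3 had 1 UMI. None of these was called between genotypes.

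The names of the deposited count data differ in a part that was read as the flow cell, which the sample labels do not give. By that reading EC-KO mouse 2 and EC-WT mouse 1 shared a flow cell and the other mice were on a flow cell each. In that pair the log2 ratio of EC-KO to EC-WT was 2.31 for Igfbp7, -0.97 for Igfbp4, -0.42 for Igfbp5, 0.47 for Igf1r, 0.18 for Insr and -0.79 for Igf2, with no test. The signs were those of the comparison of all mice except for Insr and Igf2.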

How the data were processed

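Aortic cells from 4 mice, 2 labelled EC-KO and 2 labelled EC-WT, were profiled by SORT-seq. Per the file headers and names, the authors deposited for each plate a table of UMI counts, a table of read counts and a table of expected counts of transcripts, which are UMI counts corrected for identifier saturation. No table was normalized. The submitters' processing notes name BWA 0.7.15, Seurat and the GRCm38 (mm10) build; the counter and its strand setting are not given in the sources used here. The 8 members, the marker lists, the gates and the pathway list were chosen with earlier results of these data known.

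UMI counts of kept cells were summed per mouse without spike-in and mitochondrial rows and compared with edgeR 4.0.16 in R 4.3.3 (TMM factors, filterByExpr, quasi-likelihood test, no covariate). P-values were adjusted by Benjamini-Hochberg over all genes tested, and a gene was called below an adjusted p of 0.05. Alternatives were DESeq2 1.42.0, other well filters, the expected counts, each mouse left out, the number of the mouse as a block, and left-out gate cells. Gates were compared with no gate cells in a model with the mouse as a term. Shares carry exact binomial intervals, and the limit for a count of 0 is 3 UMIs. Both cover counting error only. Groups were the genotype labels and mice were the replicates. The tests were checked on simulated counts. Plates were not the same library: the chi-square per degree of freedom between mice of a group was 5.00 and 3.29. All 384 well barcodes recur on every plate because each plate uses the same set. No doublet caller was run.

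Named were all 8 members, every pathway gene among ligands, binding proteins, receptors and proteases, the 3 genes with most UMIs of each other pathway group and any called, the 3 genes most like each member seen in at least 10% of cells, and Epas1. A gene that this rule names is not reported here. Genes called between genotypes, and genes of single cells, were named after their values were seen. Read counts were used for checks only. Software versions were pandas 2.3.3, numpy 2.4.6, matplotlib 3.10.9, scipy 1.17.1 and Python 3.11.15. Promoter sequences are from RefSeq; 7 of 8 members had an entry.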

Additional observations from a re-analysis of the deposited data

Results flagged for a closer look

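Wells that were not kept as cells entered none of the main comparisons, although some of them entered the alternatives with looser well filters. The wells not kept still held UMIs of 6 members above the limit of 3 that a count of 0 allows. There were 119 UMIs of Igfbp7, 44 of Igfbp4, 39 of Igf1r, 39 of Igf2, 15 of Igfbp5 and 6 of Insr. Plate rows L to P, 480 wells of which 0 were kept, held 40 of these UMIs of Igfbp7 (11 and 21 in the EC-KO plates, 0 and 8 in the EC-WT plates), 11 of Igfbp4, 8 of Igf1r, 8 of Igf2 and 3 of Igfbp5. Where they came from was not tested.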

How the results depend on the processing

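The number of genes called between genotypes was 10, and 11 to 13 with DESeq2 (12), a minimum of 500 UMIs (13), the expected counts (11) or without Rn45s (11). It was 115 with no filter on low counts, 22 with a minimum of 2000 UMIs, 17 with no mitochondrial limit, 0 without the smooth muscle and fibroblast gate cells (0 with DESeq2 as well), 2 without the cells of all 3 gates, and 4 to 129 with 1 mouse left out, of which 4 without EC-KO mouse 2 and 129 without EC-WT mouse 1. The log2 fold change of Igfbp7 was 0.35, 0.34 and 0.36 without the gates (edgeR, DESeq2 and all 3 gates), and 1.34 to 2.02 with 1 mouse left out. Igf1r changed sign to -0.052, -0.053 and -0.082 in the same 3 settings and ranged from -0.23 to 0.36 with 1 mouse left out, Igf2 from -0.25 to 1.34 and Epas1 from -0.12 to 0.42. In the pair read as sharing a flow cell Insr was 0.18 and Igf2 -0.79. Igfbp5 was called with no filter on low counts (-1.33, adjusted p = 0.00154) and without EC-WT mouse 1 (-1.65, adjusted p = 3.96e-05), and Igfbp4 without EC-WT mouse 2 (-0.90, adjusted p = 0.00679), all with edgeR; with 1 mouse left out, the lone mouse of its genotype is assumed to vary like the 2 of the other. The share of cells, EC-KO minus EC-WT in percentage points, ranged with 1 mouse left out from -19.3 to 4.31 for Igfbp4, from -6.40 to 6.61 for Insr and from -6.90 to 17.5 for Igf2, and was -3.33 for Insr with a minimum of 2000 UMIs. The causes were not tested.

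For the capillary lipid handling gate 184 genes were called with DESeq2 and 152 to 234 with 1 mouse left out, against 361, and Igfbp5 was -0.70 with list shares doubled. For the smooth muscle gate 292 to 705 were called with 1 mouse left out, against 704, with 292 without EC-KO mouse 2. Igfbp4 ranged there from -0.28 to 0.41, Igf1r from -0.10 to 0.71 and Insr from -0.059 to 0.46. For the fibroblast gate 24 genes were called, 13 with DESeq2, 0 to 16 with 1 mouse left out (0 without EC-KO mouse 1), and 37 with list shares halved, where Igf1r was 0.13. The r of Igfbp7 with Myl9 was -0.013 without gate cells. With the replicate number as a block (replicate block) 8 genes were called and Igfbp7 was 1.67 (edgeR adjusted p = 0.0454). The numbers share only a number, as the deviations of same-numbered mice had r = -0.039 over 6688 genes. Of 344 alternative values for 52 results, 275 kept their direction and their side of the threshold or moved little. The count of 2 mice per group and the depth of 72 to 157 cells per mouse limit all of these comparisons. Igfbp3 and Igfbp6 did not pass the filter on low counts of the main fit.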
